A study of Mus musculus with 6 samples.

Results

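Collagens are the main structural proteins of the extracellular matrix, and their synthesis needs a series of enzymes that act on the chains inside and outside the cell. Transcripts of collagen chains and of these enzymes were followed in 6 libraries of the mouse lung tumour line Lewis lung carcinoma, which can be transplanted between mice. The genes were chosen by name: every row named as a collagen chain (Col, a type number, a and a chain number), which gave 42 chains, and 16 named enzymes and processing factors, of which 15 had a row. Together they were 57 of the 19617 rows of the table. The absent name was Colgalt1, a collagen galactosyltransferase. The table holds its older symbol, Glt25d1, which stood outside the rule and is described beside the lysyl hydroxylases.

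The 3 libraries called scrambled came from cells labelled Urod wildtype that carried a scrambled short hairpin RNA (shRNA). The 3 Urod shRNA libraries came from cells labelled Urod knockdown with a hairpin against Urod, the fifth enzyme of heme synthesis. The design text gives lentiviral delivery, and both groups received 2 ug/mL doxycycline for 4 days to switch the hairpin on. The sources used here do not give whether each group is a pool of cells or a single clone, or how many hairpin sequences were used. Lower Urod and any other difference between the 2 populations cannot be told apart. The labels do not call the replicates separate cultures, and p-values therefore describe the spread among these libraries only, which may be technical.

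Collagen chains carry long repeats with glycine at regular steps, and 3 chains wind into a helix. In the endoplasmic reticulum, prolyl 4-hydroxylases and lysyl hydroxylases modify the chains before they fold, and the chaperone Hsp47 (Serpinh1) holds the folded helix. Outside the cell, Bmp1 and its helper Pcolce remove the end propeptide, and lysyl oxidases cross-link the fibrils. The hydroxylases use iron, 2-oxoglutarate and ascorbate, and the lysyl oxidases use copper. Tumour cells deposit basement membrane collagens themselves, while much of the fibrillar collagen of tumours comes from fibroblasts.

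Values are TPM, transcript abundances scaled for transcript length and to a fixed total per library, so levels of different genes can be set side by side. TPM carry no read depth. Judged by steps between the lowest values, and relative to Urod shRNA replicate 1, scrambled libraries held 73.0% to 81.9% as many reads, and Urod shRNA replicates 2 and 3 held 95.6% and 85.7%. Urod stood at 95.2, 89.9 and 92.1 TPM in scrambled and at 5.71, 5.21 and 5.35 TPM in Urod shRNA libraries. Testing used limma on log2(TPM + 1) for genes averaging 1 TPM or more over the 6 libraries, and a gene was called at an adjusted p under 0.05. Of 11980 genes tested, 74.7% were called, 36.2% lower and 38.5% higher in Urod shRNA libraries. Any count of collagen genes has to be read against these shares.

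Of the transcripts tested, most collagen chains and all enzymes of the rule were called lower in Urod shRNA libraries. Of 18 tested chains, 15 were called lower and 1 higher, beside 36.2% lower and 38.5% higher among all tested genes. All 12 tested enzymes were called lower, Loxl4 only by a narrow margin. At least 2-fold falls in mean TPM were called for 9 chains and 4 enzymes, beside 6.85% of all tested genes. The groups did not overlap, with Urod shRNA lower, for 16 tested chains and 11 tested enzymes, beside 37.5% of all tested genes. They did not overlap with Urod shRNA higher for 1 chain, beside 39.8% of all tested genes, and 77.3% of all tested genes did not overlap in either direction. The median log2 change was -0.82 for the tested chains and -0.78 for the tested enzymes, against 0.02 over all tested genes. The other 24 chains and 3 enzymes had a mean under 1 TPM and were not tested.

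The filter can favour genes that are high in a single group. Among the tested members, Col8a1, Col13a1, Col20a1, Col17a1 and P4ha3 had a mean under 1 TPM in 1 group and above it in the other. Without them, 12 of 14 chains and 11 of 11 enzymes were called lower and 0 higher. Col8a1, Col13a1, Col20a1 and P4ha3 are also among the falls of at least 2-fold counted above. The chains closest to the limit were Col12a1 and Col11a2 below it, with means of 0.969 and 0.961 TPM, and Col17a1 and Col15a1 above it, with 1.10 and 1.27 TPM. Above a mean of 10 TPM, where 35.6% of all genes were called lower, all 10 chains and all 10 enzymes were.

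**Figure D1:**
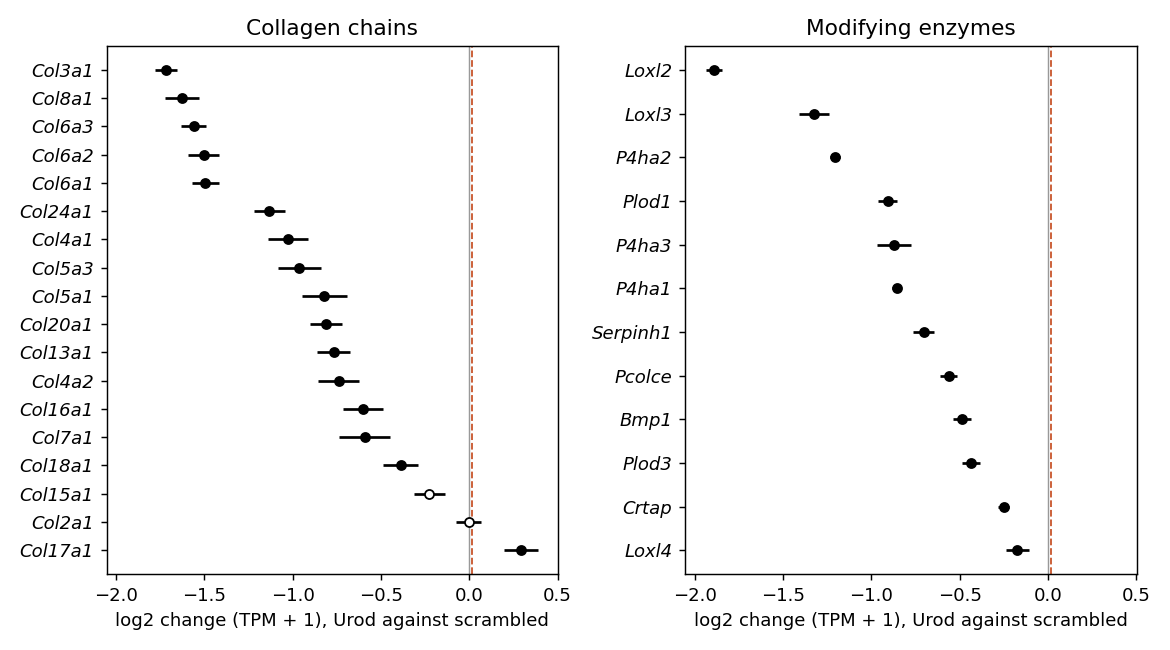
Log2 change of each tested chain (left) and enzyme (right), Urod shRNA against scrambled on the log2(TPM + 1) scale, with bars of 1 SE from limma (n = 3 per group); filled points were called, and the dashed line marks the median of all tested genes, 0.02. Every enzyme lies left of that line, from -1.89 for Loxl2 to -0.17 for Loxl4, and Col17a1 is the chain furthest to the right at 0.29.

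The libraries numbered 1 were low for these genes in both groups. Of the 18 tested chains, 17 had their lowest scrambled value in replicate 1 and 15 their lowest Urod shRNA value in replicate 1. For enzymes the counts were 10 and 10 of 12. On the log2 scale replicate 1 lay below the mean of replicates 2 and 3 by a median of -0.22 for chains in scrambled and -0.17 in Urod shRNA libraries, against -0.02 and -0.04 over all tested genes. The same difference followed the GC content of the longest coding transcript across 10813 genes, with Pearson r of -0.46 in scrambled and -0.35 in Urod shRNA libraries, and genes are not independent replicates. It also followed log2 transcript length, with r of -0.20 and -0.38. Median GC content was 57.3% for the tested chains and 50.4% for all tested genes with a transcript, and median length was 5576 and 3056 bases. Their part in the spread of the chains was not tested. Without both libraries numbered 1, an alternative added after the data were seen, 15 of 18 chains and 12 of 12 enzymes were called lower and 0 higher. With that setting 9349 of all 11980 tested genes were called, and 52.2% of those called were higher.

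The basement membrane chains Col4a1 and Col4a2 were the most abundant collagen transcripts in these cells. Their protein products combine into the type IV network that underlies epithelia and vessels. Col4a1 stood at 991, 1280.4 and 1243 TPM in scrambled and at 503, 618 and 597 TPM in Urod shRNA libraries. Col4a2 stood at 578, 748 and 742 TPM in scrambled and at 359, 445 and 431 TPM in Urod shRNA libraries. The groups did not overlap for either chain, and replicate 1 was lowest in all of these sets. Col4a1 fell 2.05-fold, from 1172 ± 157 to 573 ± 61.1 TPM (SD, n = 3 per group), with a log2 change of -1.03 (SE 0.11, limma, adjusted p = 8.95e-05). Col4a2 fell 1.68-fold, from 689.5 ± 96.3 to 412 ± 46.0 TPM (SD, n = 3 per group; log2 change -0.74, SE 0.12, limma, adjusted p = 0.000694).

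Col4a1 and Col4a2 are neighbours that are read in opposite directions from a common start region on chromosome 8. In GRCm38, Col4a1 (ENSMUSG00000031502.11) runs from 11198423 to 11312826 on the minus strand and Col4a2 (ENSMUSG00000031503.13) from 11312805 to 11449287 on the plus strand. The annotated starts overlap by 22 bases, and the sources used here do not give whether the authors' counting used strand there. The 30 bases around both starts (chr8:11312801-11312830, plus strand, RefSeq, GRCm38.p6) show how close together the divergent transcripts begin.
Col4a1 and Col4a2 starts: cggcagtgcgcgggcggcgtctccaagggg
The letter motif CCAAT, on either strand, occurred at 145 to 141 bases before the Col4a1 start and at 32 to 28 bases before the Col4a2 start.

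The balance of these chains also differed between the groups, a comparison chosen after the values were seen. The ratio of Col4a1 to Col4a2 TPM was 1.71, 1.71 and 1.68 in scrambled and 1.40, 1.39 and 1.39 in Urod shRNA libraries. Its means were 1.70 ± 0.0219 and 1.39 ± 0.0087 (SD, n = 3 per group; exact two-sided permutation p = 0.1, the smallest that 3 against 3 can give). Replicate 1, low for each chain, did not stand apart in the ratio. Together the 2 chains made up 61.0% to 62.4% of the summed TPM of all chains in scrambled and 64.0% to 65.2% in Urod shRNA libraries. Of the other network chains, Col8a1, a short chain of vessel and corneal matrix, fell from 2.84 ± 0.421 to 0.239 ± 0.0285 TPM (SD, n = 3 per group; log2 change -1.63, SE 0.10, limma, adjusted p = 3.86e-06). Col4a3, Col4a4, Col4a6, Col8a2 and Col10a1 were not tested.

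**Figure D2:**
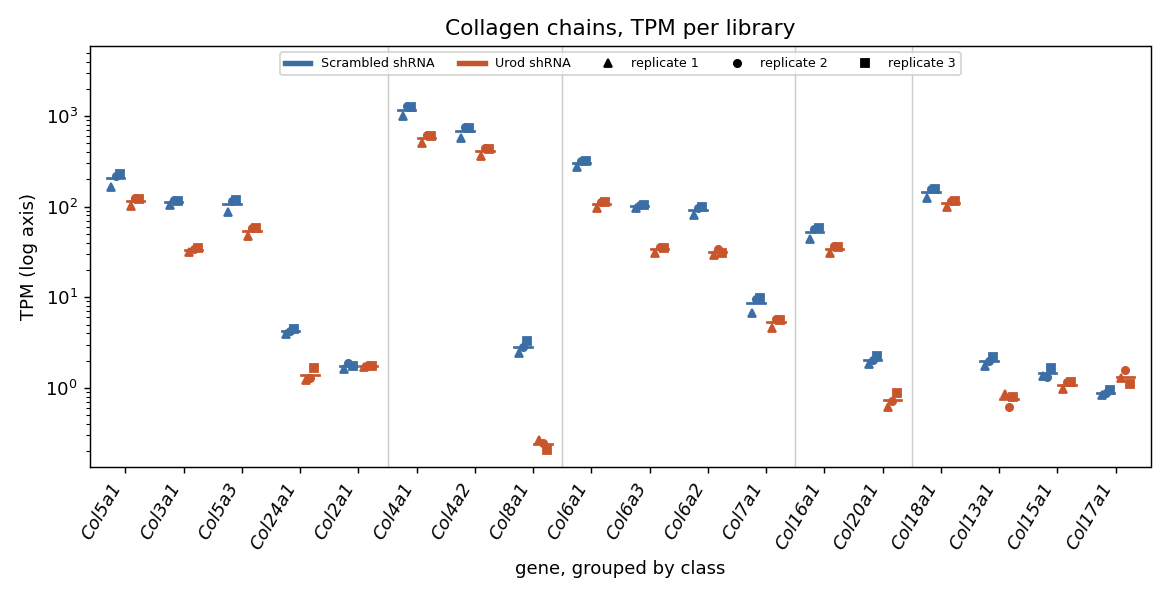
TPM of the 18 tested chains in each library on a log axis, grouped by class from left to right as fibrillar, network, beaded filament and anchoring, fibril-associated, and transmembrane or multiplexin chains; points are libraries, with marker shape for the replicate number, and short lines are group means. Col4a1 and Col4a2 lie highest, and for most chains the triangle of replicate 1 is the lowest point of its group.

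Of the 5 tested fibrillar chains, 4 fell and Col2a1 did not pass. Col3a1, the single chain of type III collagen, had the largest fall of all tested chains on the log2(TPM + 1) scale, while Col8a1 fell further as a ratio of mean TPM. It stood at 104, 119.6 and 115 TPM in scrambled and at 31.7, 34.2 and 34.9 TPM in Urod shRNA libraries, with no overlap. The fall was 3.36-fold, from 113 ± 8.31 to 33.6 ± 1.70 TPM (SD, n = 3 per group; log2 change -1.72, SE 0.06, limma, adjusted p = 3.68e-07). Col3a1 (ENSMUSG00000026043.18) lies on chromosome 1 from 45311538 to 45349706.

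Type V collagen, which sets the width of fibrils, was represented by Col5a1 and Col5a3 and hardly at all by Col5a2. Col5a1 stood at 167, 219 and 228 TPM in scrambled and at 101, 123 and 121 TPM in Urod shRNA libraries. Col5a3 stood at 87.9, 115 and 119.5 TPM in scrambled and at 47.8, 57.4 and 57.7 TPM in Urod shRNA libraries. Both fell without overlap, Col5a1 1.78-fold (log2 change -0.82, SE 0.13, limma, adjusted p = 0.000597) and Col5a3 1.98-fold (log2 change -0.96, SE 0.12, limma, adjusted p = 0.000219). Col5a2 was at 0.227 ± 0.0348 and 0.0348 ± 0.0295 TPM (SD, n = 3 per group) and was not tested. The ratio of Col5a3 to Col5a1 was 0.527, 0.522 and 0.524 in scrambled and 0.473, 0.467 and 0.479 in Urod shRNA libraries (exact two-sided permutation p = 0.1, the smallest possible), a comparison chosen after the values were seen.

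Of the remaining tested fibrillar chains, Col24a1, a minor fibrillar chain, fell from 4.21 ± 0.229 to 1.38 ± 0.234 TPM (SD, n = 3 per group; log2 change -1.13, SE 0.09, limma, adjusted p = 1.45e-05). Col2a1, the cartilage collagen, was at 1.75 ± 0.142 and 1.74 ± 0.0649 TPM (SD, n = 3 per group) and did not pass (SE 0.07 on the log2 scale, limma, adjusted p = 0.96). The chains of type I collagen, the main product of fibroblasts, were near or under 1 TPM and were not tested. Col1a1 stood at 0.897, 1.28 and 1.58 TPM in scrambled and at 0.175, 0.116 and 0.1398 TPM in Urod shRNA libraries. Col1a2 was under 0.05 TPM in every library. 
The 250 bases before the annotated start of Col3a1 (chr1:45311288-45311537, plus strand) and of Col5a1 (chr2:27886175-27886424, plus strand) are shown because these are the most abundant fibrillar chains in scrambled libraries (RefSeq, GRCm38.p6); in Urod shRNA libraries Col5a3 stood above Col3a1. Capitals mark the letters TATAAA in Col3a1 and ACGTG or its reverse complement in Col5a1.
Col3a1: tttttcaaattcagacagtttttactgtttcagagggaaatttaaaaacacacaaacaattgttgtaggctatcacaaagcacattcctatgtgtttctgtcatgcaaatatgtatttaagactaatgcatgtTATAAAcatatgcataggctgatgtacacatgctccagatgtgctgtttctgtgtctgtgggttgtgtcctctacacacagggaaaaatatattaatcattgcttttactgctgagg
Col5a1: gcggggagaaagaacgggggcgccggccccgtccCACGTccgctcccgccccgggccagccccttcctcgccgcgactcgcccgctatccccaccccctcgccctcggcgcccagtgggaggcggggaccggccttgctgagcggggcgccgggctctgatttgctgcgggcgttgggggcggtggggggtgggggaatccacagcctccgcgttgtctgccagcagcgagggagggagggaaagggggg

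Type VI collagen, which forms beaded filaments around cells, needs the products of Col6a1, Col6a2 and Col6a3 in each molecule, and all of these fell by a similar factor. Col6a1 stood at 276, 322 and 316 TPM in scrambled and at 97.5, 112 and 112 TPM in Urod shRNA libraries. Col6a2 stood at 80.1, 96.8 and 98.3 TPM in scrambled and at 29.6, 34.3 and 31.0 TPM in Urod shRNA libraries. Col6a3 stood at 95.8, 105 and 106 TPM in scrambled and at 30.5, 36.3 and 35.2 TPM in Urod shRNA libraries. None of these overlapped between groups, and the falls were 2.84-fold, 2.90-fold and 3.003-fold. The log2 changes were -1.49 (SE 0.08), -1.504 (SE 0.09) and -1.56 (SE 0.07), with limma adjusted p of 1.74e-06, 3.37e-06 and 9.39e-07.

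Col6a1 (chromosome 10, from 76708792 to 76726168) and Col6a2 (chromosome 10, from 76595762 to 76623630) are close neighbours, whereas Col6a3 lies on chromosome 1 from 90765923 to 90843971. The ratio of Col6a1 to Col6a2 TPM was 3.33 ± 0.114 in scrambled and 3.40 ± 0.191 in Urod shRNA libraries (SD, n = 3 per group), and the groups overlapped (exact two-sided permutation p = 0.7). The ratio of Col6a3 to Col6a1 was 0.348, 0.326 and 0.334 in scrambled and 0.313, 0.323 and 0.313 in Urod shRNA libraries, a narrow gap with no overlap (exact two-sided permutation p = 0.1, the smallest possible). The ratio of Col6a3 to Col6a2 overlapped between the groups (exact two-sided permutation p = 0.5). It was 1.12 ± 0.0684 in scrambled and 1.07 ± 0.0519 in Urod shRNA libraries (SD, n = 3 per group). All of these ratios were chosen after the values were seen. The summed level of the 3 chains was 34.7% of scrambled, against 52.9% for Col4a1 and Col4a2 together and 47.8% for the tested fibrillar chains. These sums were not tested against each other. Col7a1, the anchoring fibril collagen of skin and mucosa, stood at 6.62, 9.64 and 9.72 TPM in scrambled and at 4.61, 5.78 and 5.67 TPM in Urod shRNA libraries, and fell 1.62-fold (log2 change -0.59, SE 0.14, limma, adjusted p = 0.00662).

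Fibril-associated and membrane-linked chains varied in how far they fell. Col16a1, a fibril-associated chain, stood at 44.0, 57.4 and 58.1 TPM in scrambled and at 31.2, 36.7 and 35.4 TPM in Urod shRNA libraries, a 1.54-fold fall (log2 change -0.60, SE 0.11, limma, adjusted p = 0.00165). Col18a1, a basement membrane proteoglycan whose end fragment is endostatin, stood at 124, 155 and 156 TPM in scrambled and at 100.1, 115 and 115 TPM in Urod shRNA libraries. Its fall of 1.32-fold was the smallest called fall of a chain on the log2 scale (-0.39, SE 0.10, limma, adjusted p = 0.00812), with the lowest scrambled value only just above the highest Urod shRNA value. The fibril-associated chain Col20a1 and the transmembrane chain Col13a1 fell from 2.05 ± 0.202 and 1.99 ± 0.223 TPM to 0.738 ± 0.125 and 0.754 ± 0.128 TPM (SD, n = 3 per group; log2 changes -0.81 and -0.77, limma, adjusted p = 0.000102 and 0.000168).

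Col17a1, the hemidesmosome collagen of epithelial cells, was the only tested chain called higher. It stood at 0.836, 0.881 and 0.945 TPM in scrambled and at 1.29, 1.57 and 1.09 TPM in Urod shRNA libraries, and rose 1.49-fold (log2 change 0.29, SE 0.10, limma, adjusted p = 0.0247). Leaving out scrambled replicate 1, scrambled replicate 2, Urod shRNA replicate 1 or Urod shRNA replicate 2 took its adjusted p to between 0.0549 and 0.0809, and the call was lost. Col15a1, a multiplexin related to Col18a1, was at 1.45 ± 0.195 and 1.09 ± 0.112 TPM (SD, n = 3 per group) and narrowly missed the threshold (log2 change -0.23, SE 0.09, limma, adjusted p = 0.0511). Its groups did not overlap.

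Among the 24 untested chains, 5 had every Urod shRNA value under every scrambled value, 3 had every value above, and 16 overlapped. Among the 7610 genes under the same 1 TPM limit, 17.4% had the groups apart with Urod shRNA lower and 12.4% with Urod shRNA higher. Those lower were Col1a1, Col5a2, Col6a4, Col12a1 and Col27a1, and those higher were Col10a1, Col11a2 and Col14a1. Col12a1, a fibril-associated chain of tendon and stroma, stood at 1.57, 1.56 and 1.71 TPM in scrambled and at 0.321, 0.371 and 0.293 TPM in Urod shRNA libraries. Col11a2, a cartilage chain, stood at 0.455, 0.651 and 0.755 TPM in scrambled and at 1.01, 1.53 and 1.36 TPM in Urod shRNA libraries. Col10a1 was listed at 0 in every scrambled library and at 0.0415 to 0.113 TPM in Urod shRNA libraries. In the authors' deposited table, 5 of the 24 had an FDR under 0.05 and a lower value and 2 a higher value, beside 28.0% lower and 28.1% higher of all rows with a gene name. Those shares include genes above the 1 TPM limit. The shares under it were not computed, so these counts cannot be read as more or fewer than usual.

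The authors' deposited table called 16 of the 18 tested chains lower, among them Col15a1 (log2 fold change -0.41), and Col17a1 higher. It called all 12 tested enzymes lower. Of all rows with a gene name, it called 28.0% lower and 28.1% higher. Its shares among the tested genes alone were not computed. It comes from the same libraries and is not independent.

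Prolyl 4-hydroxylases, whose hydroxyproline keeps the collagen helix stable at body temperature, were lower in all 3 catalytic subunits. P4ha1 stood at 177, 175 and 178 TPM in scrambled and at 97.5, 96.6 and 97.8 TPM in Urod shRNA libraries. P4ha2 stood at 202, 209 and 207 TPM in scrambled and at 86.8, 88.5 and 91.0 TPM in Urod shRNA libraries. Neither subunit overlapped between groups, and the spread within each group was small beside the differences. P4ha1 fell 1.82-fold (log2 change -0.85, SE 0.03, limma, adjusted p = 1.88e-07) and P4ha2 2.32-fold (log2 change -1.21, SE 0.03, limma, adjusted p = 9.27e-08). P4ha3 was much lower in level and fell from 2.44 ± 0.360 to 0.872 ± 0.101 TPM (SD, n = 3 per group; log2 change -0.87, SE 0.10, limma, adjusted p = 0.000108).

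The order of the main subunits was turned around between the groups. P4ha2 was the higher of the pair in scrambled libraries, with a P4ha1 to P4ha2 ratio of 0.878, 0.838 and 0.860. P4ha1 was the higher in Urod shRNA libraries, with ratios of 1.12, 1.09 and 1.08 (exact two-sided permutation p = 0.1, the smallest possible). This ratio was chosen after the values were seen. P4ha1 (ENSMUSG00000019916.14) lies on chromosome 10 from 59323296 to 59373304, and P4ha2 (ENSMUSG00000018906.14) on chromosome 11 from 54100095 to 54131665.

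The 250 bases before the RefSeq start of both genes (chr10:59323046-59323295 and chr11:54100674-54100923, plus strand, GRCm38.p6) are shown because both hold ACGTG, the core letters of the element that hypoxia-inducible factors bind, also part of some E-boxes. With the 50 bases after the start counted as well, these letters were in 17.9% of the tested members' promoter windows and 19.6% of all. The P4ha2 stretch lies inside the span GENCODE gives for the gene, in no exon. Capitals mark ACGTG or its reverse complement.
P4ha1: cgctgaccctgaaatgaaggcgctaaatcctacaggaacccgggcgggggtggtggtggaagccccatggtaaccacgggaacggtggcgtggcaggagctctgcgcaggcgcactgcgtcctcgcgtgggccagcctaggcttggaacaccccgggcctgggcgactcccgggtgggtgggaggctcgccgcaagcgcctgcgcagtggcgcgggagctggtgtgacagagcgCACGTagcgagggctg
P4ha2: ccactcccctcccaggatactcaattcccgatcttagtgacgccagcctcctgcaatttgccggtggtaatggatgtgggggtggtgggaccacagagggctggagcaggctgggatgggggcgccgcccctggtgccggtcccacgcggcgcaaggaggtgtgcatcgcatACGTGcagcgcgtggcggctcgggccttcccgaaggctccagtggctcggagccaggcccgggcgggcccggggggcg

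Lysyl hydroxylases prepare lysines for cross-links and sugar attachment, and they differed widely in level. Plod1 stood at 317, 360.0 and 349 TPM in scrambled and at 173, 188 and 185 TPM in Urod shRNA libraries, a fall of 1.88-fold (log2 change -0.91, SE 0.05, limma, adjusted p = 3.81e-06). Plod3, which also has glycosyltransferase activity, stood at 97.0, 107 and 105 TPM in scrambled and at 71.6, 78.1 and 78.1 TPM in Urod shRNA libraries, a smaller fall of 1.36-fold (log2 change -0.43, SE 0.05, limma, adjusted p = 0.000132). Plod2, which hydroxylates the telopeptide lysines, was under 0.25 TPM in every library and was not tested. Glt25d1, the older symbol of Colgalt1 per RefSeq, adds galactose to hydroxylysine. It was looked up after the rule found no row, and it fell 1.17-fold, from 368 ± 12.4 to 314 ± 8.97 TPM (SD, n = 3 per group; log2 change -0.23, SE 0.04, limma, adjusted p = 0.00062).

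**Figure D3:**
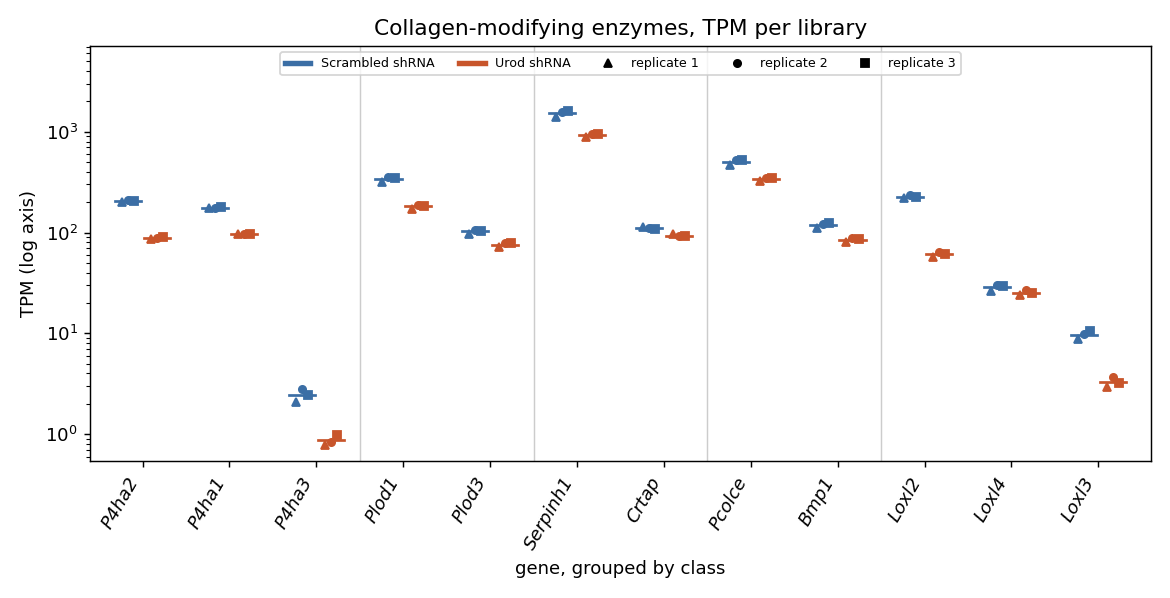
TPM of the 12 tested enzymes and processing factors in each library on a log axis, grouped from left to right as prolyl 4-hydroxylases, lysyl hydroxylases, the chaperone and Crtap, propeptide removal, and lysyl oxidases; points are libraries and short lines are group means. Serpinh1 is highest at 1525 TPM in scrambled, Loxl2 shows the widest gap between groups, and Loxl4 the only overlap.

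Serpinh1, which encodes the collagen chaperone Hsp47, was the most abundant member of all. It stood at 1397, 1560.4 and 1619 TPM in scrambled and at 896, 962 and 948 TPM in Urod shRNA libraries, with replicate 1 lowest in both groups. The fall was 1.63-fold (log2 change -0.70, SE 0.06, limma, adjusted p = 1.96e-05). Crtap, a partner of prolyl 3-hydroxylase, fell only 1.19-fold, from 111 ± 2.06 to 93.3 ± 2.23 TPM (SD, n = 3 per group; log2 change -0.25, SE 0.03, limma, adjusted p = 0.000186). Serpinh1 (ENSMUSG00000070436.12) is a minus-strand gene of chromosome 7, from 99345376 to 99353239. The 250 bases before its RefSeq start (chr7:99353240-99353489, minus strand, GRCm38.p6) are shown because this gene is the most abundant member and also holds ACGTG on either strand, in capitals.
Serpinh1: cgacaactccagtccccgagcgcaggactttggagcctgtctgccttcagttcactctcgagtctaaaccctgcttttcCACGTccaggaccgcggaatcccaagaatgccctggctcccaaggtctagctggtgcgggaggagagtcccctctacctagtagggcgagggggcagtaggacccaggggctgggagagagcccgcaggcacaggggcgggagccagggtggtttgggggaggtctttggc

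The factors that remove the C-propeptide fell together and by little. Pcolce, the enhancer that binds procollagen, stood at 470.2, 522 and 519 TPM in scrambled and at 328, 348 and 348 TPM in Urod shRNA libraries (1.48-fold, log2 change -0.56, SE 0.05, limma, adjusted p = 2.37e-05). Bmp1, the protease itself, stood at 112, 122 and 123 TPM in scrambled and at 80.7, 88.1 and 85.5 TPM in Urod shRNA libraries (1.41-fold, log2 change -0.49, SE 0.05, limma, adjusted p = 5.73e-05). Neither overlapped between groups.

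Lysyl oxidases held both the largest and the smallest change among the enzymes. Loxl2, which oxidises lysines of collagen and is known for its role in type IV collagen and in tumour stroma, stood at 219.5, 237 and 227 TPM in scrambled and at 57.3, 63.7 and 61.3 TPM in Urod shRNA libraries. It fell 3.75-fold, from 228 ± 8.93 to 60.8 ± 3.25 TPM (SD, n = 3 per group; log2 change -1.89, SE 0.05, limma, adjusted p = 9.14e-08). Loxl3 fell 2.96-fold, from 9.73 ± 0.827 to 3.28 ± 0.361 TPM (SD, n = 3 per group; log2 change -1.33, SE 0.09, limma, adjusted p = 5.82e-06). Loxl2 (ENSMUSG00000034205.16) lies on chromosome 14 from 69609068 to 69695834.

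Loxl4 stood at 26.1, 30.1 and 29.5 TPM in scrambled and at 23.8, 26.7 and 25.2 TPM in Urod shRNA libraries, and the groups overlapped. Its fall of 1.13-fold was called (log2 change -0.17, SE 0.07, limma, adjusted p = 0.0434), but the call was lost without scrambled replicate 2 (adjusted p = 0.137), without scrambled replicate 3 (0.128), without Urod shRNA replicate 1 (0.124) and without Urod shRNA replicate 3 (0.0982). Loxl1, which acts on elastin, was untested at 0.770 ± 0.0679 and 0.253 ± 0.0764 TPM (SD, n = 3 per group), with no overlap. Lox, the founding member of the family, was listed at 0 in 5 of 6 libraries and at 0.0120 TPM in the other. Loxl2 was thus the main lysyl oxidase transcript of these cells in both groups.

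Set side by side as sums, chains and enzymes took similar shares of the transcriptome. All 42 chains summed to 2573, 3249 and 3217 TPM in scrambled and to 1347, 1630.2 and 1588 TPM in Urod shRNA libraries. All 15 enzymes summed to 3143, 3447 and 3481 TPM in scrambled and to 1915, 2036 and 2016 TPM in Urod shRNA libraries. The chains were at 50.5% of the scrambled level and the enzymes at 59.2%. Replicate 1 was again lowest in each set. The ratio of summed chains to summed enzymes was 0.819, 0.943 and 0.924 in scrambled and 0.704, 0.801 and 0.788 in Urod shRNA libraries, and the groups did not overlap, although scrambled replicate 1 lay close to the Urod shRNA values. No p is given for sums over genes chosen with earlier results known. The sums follow their most abundant members: without Serpinh1 the enzymes were at 57.5% and without Col4a1 and Col4a2 the chains were at 46.7%.

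**Figure D4:**
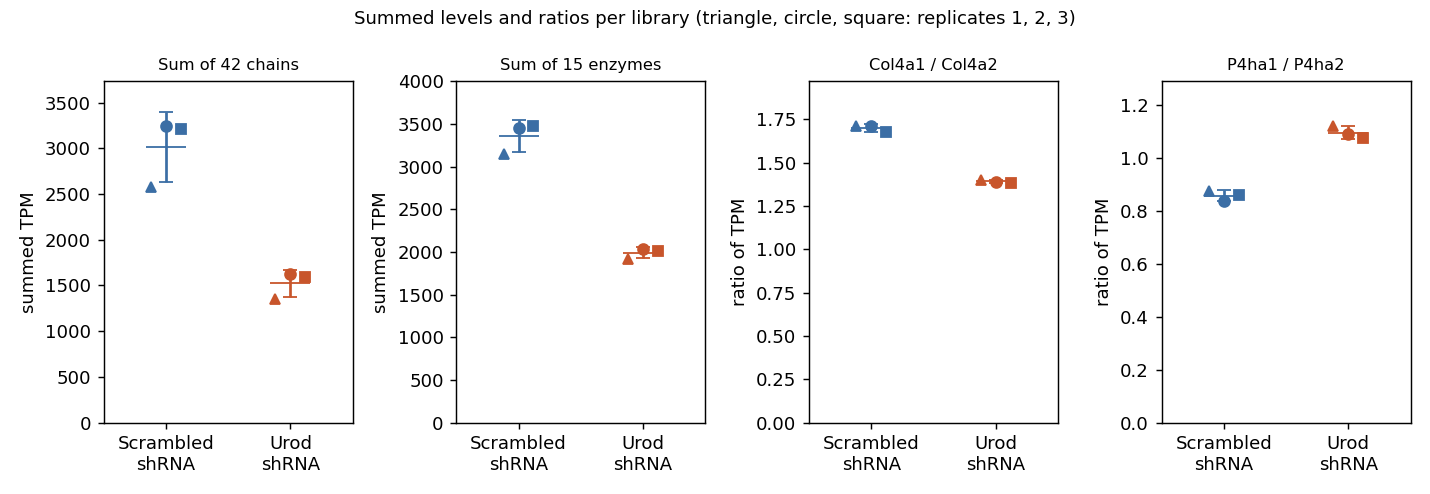
Per library, the summed TPM of 42 chains and of 15 enzymes (left) and the TPM ratios of Col4a1 to Col4a2 and of P4ha1 to P4ha2 (right); points are libraries, horizontal lines the group means and bars 1 SD (n = 3 per group), and all axes start at 0. Replicate 1 is the lowest point of each sum, while the ratios are tight within groups and differ between them, at 1.70 and 1.39 for the type IV chains and 0.858 and 1.10 for the prolyl hydroxylases.

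Other genes that fold and modify collagen, listed by name and outside the rule, were mostly lower as well. Of 15 tested among 24 names, 12 were called lower and 1 higher, with a median log2 change of -0.51. Among all tested genes 36.2% were called lower and 38.5% higher. Of those lower, Leprel1, named after its value was seen, averaged under 1 TPM in Urod shRNA libraries only. Fkbp7, a peptidyl-prolyl isomerase of the endoplasmic reticulum, fell 3.41-fold, from 98.9 ± 3.41 to 28.97 ± 1.68 TPM (SD, n = 3 per group; log2 change -1.74, limma, adjusted p = 1.51e-07). Its relatives Fkbp9 (-0.71) and Fkbp14 (-0.83) fell less on the log2 scale. P4hb, the disulfide isomerase that is the beta subunit of prolyl 4-hydroxylase, fell 1.41-fold, from 1742 ± 24.1 to 1236 ± 8.23 TPM (SD, n = 3 per group; log2 change -0.49, limma, adjusted p = 2.58e-06), less than P4ha1 or P4ha2 in fold. Adamts3, of the procollagen N-proteinase family, was the gene called higher (0.22 on the log2 scale), and Creb3l1 and Pcolce2 did not pass. These last 3 are named after their values were seen.

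Collagen export genes were called in both directions, much as all tested genes were. Of 14 tested genes of collagen export, 5 were called higher and 6 lower, with a median of -0.06. Both counts are near the shares over all tested genes, 38.5% higher and 36.2% lower. Ctage5, whose product works with TANGO1 at exit sites of the endoplasmic reticulum, rose 2.15-fold, from 66.8 ± 2.15 to 144 ± 2.19 TPM (SD, n = 3 per group; log2 change 1.09, limma, adjusted p = 2.00e-07). Scfd1, Cul3, Sec13 and Stx18 were the others called higher, Scfd1 by 0.49 on the log2 scale, and the coat genes Sec23a and Sar1a fell by 0.46 and by 0.29 on the log2 scale. Mia3, which encodes the procollagen cargo receptor TANGO1 and was named after its value was seen, had means of 75.5 and 75.01 TPM in the 2 groups and did not pass (limma, adjusted p = 0.856).

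Of 11 tested collagen receptor and turnover genes, 3 were called higher and 7 lower, with a median of -0.52. Among all tested genes 38.5% were called higher and 36.2% lower. The discoidin domain receptors, which bind collagen directly, moved apart. Ddr2 rose 2.32-fold, from 54.4 to 126 TPM in the means (log2 change 1.20, limma, adjusted p = 4.99e-07). Ddr1, named after its value was seen, fell 2.32-fold, from 34.1 to 14.7 TPM in the means (log2 change -1.16, limma, adjusted p = 3.31e-05). Ddr1 was also lowest in replicate 1 of both groups. The protease genes Ctsl (0.16) and Pepd (0.26) were the others called higher on the log2 scale. The gelatinase Mmp2 (-0.68), the integrin beta chain Itgb1 (-0.52) and the lysosomal protease Ctsb (-0.40) fell on the log2 scale.

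Among tested matrix genes that regulate fibril assembly, Prelp fell furthest on the log2(TPM + 1) scale, and further than any tested collagen chain. Fmod, Ogn and Bgn also fell further than any tested chain on that scale. As a ratio of mean TPM, Fmod fell further than Prelp, by 24.1-fold. Of 7 tested among 15 names, 6 were called lower and 0 higher, with a median of -1.74, the value of Bgn. Among all tested genes 36.2% were called lower and 38.5% higher. Bgn, Fmod, Ogn and Dpt averaged under 1 TPM in Urod shRNA libraries and above it in scrambled, which the filter can favour. Bgn and Dpt were named after their values were seen. The small leucine-rich proteoglycan gene Prelp fell 14.98-fold, from 31.0 ± 1.64 to 2.07 ± 0.0714 TPM (SD, n = 3 per group; log2 change -3.38, limma, adjusted p = 2.57e-08). Its relatives Fmod and Ogn fell from means of 6.28 and 6.62 TPM to 0.260 and 0.584 TPM (limma, adjusted p = 2.00e-07 and 3.49e-07). Sparc, a secreted collagen-binding glycoprotein, fell 1.88-fold, from 1722 ± 26.6 to 914 ± 14.1 TPM (SD, n = 3 per group; log2 change -0.91, limma, adjusted p = 2.22e-07). Lists were compared with no test between them.

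**Figure D5:**
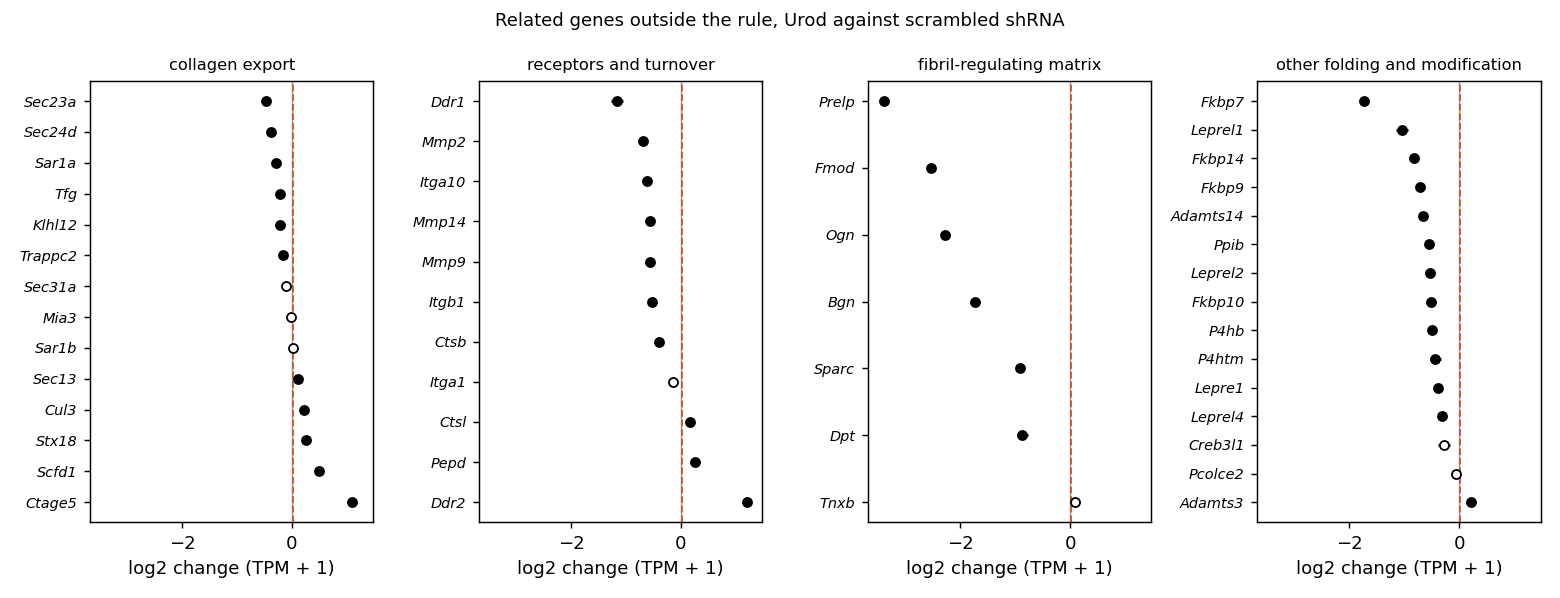
Log2 change on the log2(TPM + 1) scale, Urod shRNA against scrambled, of tested genes outside the rule in 4 lists (collagen export, receptors and turnover, fibril-regulating matrix genes, other folding and modification genes); bars are 1 SE from limma (n = 3 per group), filled points were called and the dashed line is the median of all tested genes. Export genes lie on both sides of 0, and 12 of 15 folding genes were called lower, beside 36.2% of all tested genes. Prelp lies furthest left at -3.38.

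Markers of the labelled and of other cell types were read beside these results. Of 9 epithelial carcinoma markers with a row, 7 were under 1 TPM in both groups, including Cdh1 (0.843 and 0.825 TPM in the means), Krt18 and Krt19. The 2 tested markers went opposite ways. Krt8 was called higher, at 315 ± 13.5 and 459 ± 12.7 TPM (SD, n = 3 per group; log2 change 0.54, limma, adjusted p = 9.55e-06). Epcam was called lower, at 1.96 and 0.943 TPM in the means (log2 change -0.61, limma, adjusted p = 0.00039). Most listed epithelial markers were thus under 1 TPM in these libraries. Of 11 fibroblast and stromal markers, 4 were under 1 TPM in both groups, namely Thy1, Dcn, Lum and Fap, each at most 0.216 TPM in the mean. The list summed to between 96.6 and 104 TPM in scrambled and between 61.6 and 67.7 TPM in Urod shRNA libraries, of which Pdgfra made up 57.3 and 34.9 TPM in the means. Of these markers, 5 of 7 tested were called lower and 0 higher, beside 36.2% lower and 38.5% higher among all tested genes. Of those lower, Dpt and Rgs5 averaged under 1 TPM in Urod shRNA libraries only. Dcn, Lum and Dpt also stand in the list of fibril-regulating genes.

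Leukocyte and endothelial markers summed to between 117 and 118 TPM in scrambled and between 64.8 and 67.5 TPM in Urod shRNA libraries, with Ptprc under 0.1 TPM in every library and Lyz2 and Cd68 making up most of the sum. Of 5 tested, Pecam1 and Cd14 were called higher and Cd68, Lyz2 and Vwf lower, beside 38.5% higher and 36.2% lower among all tested genes. Pecam1, an endothelial marker, stood at 4.74 and 7.37 TPM in the means. The part of other cell types in the collagen results was not tested. In bulk RNA, fewer cells of a type and less RNA per cell cannot be told apart.

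Promoter windows were searched for letter motifs as a description only. RefSeq windows, from 250 bases before to 50 after each start, were at hand for 26 of the 30 tested members, in 28 windows. ACGTG, on either strand, was in 5 of the 28, namely Col5a1, P4ha1, P4ha2, Plod3 and Serpinh1, or 17.9%, against 19.6% of all 32851 windows. By kind these were 1 of 19 chain windows and 4 of 9 enzyme windows. CCAAT was in 28.6% of the members' windows and 37.4% of all, TATAAA in 21.4% and 13.6%, and the AP-1 letters TGANTCA in 3.57% and 7.81%. The ER stress element (CCAAT, 9 free bases, CCACG), which overlaps CCAAT, and the heat shock element (GAA, 2 free bases, TTC, 2 free bases, GAA) were in 0 of the 28, against 0.119% and 0.603% of all windows. A match is no site, and absence says only that the letters are not within these 300 bases.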

How the data were processed

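Transcripts of Lewis lung carcinoma cells were measured in 6 libraries, grouped by their titles as scrambled shRNA (n = 3) and Urod shRNA (n = 3). Per the labels' protocols, libraries were strand-specific and made from polyadenylated RNA. The 51-bp single-end reads were trimmed and aligned to mm10 with TopHat, keeping those of mapping quality 10 or more. The submitters' processing notes name Cufflinks and Cuffdiff 2.1.1. The authors' deposited values per library are called normalized counts. Every column adds up to 1000000, and the difference between log2 of a gene's mean and the log2 CPM of the authors fell with log2 transcript length (r = -0.90, Pearson, over 10813 genes that are no independent replicates). These values were therefore read as TPM made by the authors. A second table deposited by the authors has, per the file headers, a log2 fold change for each gene with its log2 CPM, LR score, p-value and FDR. The sources used here do not name the test behind it.

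Left out were 27 of 19617 rows that hold a date where a gene symbol belongs (0.231% to 0.241% of TPM). Genes averaging 1 TPM or more were fitted as log2(TPM + 1) with limma 3.58.1 in R 4.3.3, using empirical Bayes and a variance trend, with two-sided p-values adjusted by Benjamini-Hochberg over 11980 genes and a threshold of 0.05. The log scale understates the change of low genes. Folds are ratios of mean TPM. Alternative scalings, filters, pseudocounts and left-out libraries were run. The procedure was run on simulated data with independent noise for each gene and few changed genes. These data differ on both points, so that run does not give the error rate here. TPM keep no counts, so no counting interval can be given. Figures used matplotlib 3.10.9 in Python 3.11.15.

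Members, lists and motifs were chosen with earlier results of these data known. Every tested member is named, and of each other list up to 4 genes with the smallest adjusted p, unless said otherwise. No set test and no p over the members was made. Protein features planned for the chains were not analysed here. Gene coordinates come from GENCODE M21 (GRCm38, the same assembly as mm10).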

Additional observations from a re-analysis of the deposited data

How the results depend on the processing

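Without 1 library at a time there were 8262 to 9008 called genes, 15 to 16 called chains, 11 to 12 called enzymes and a Urod log2 change between -3.89 and -3.84. Over the same libraries left out, the summed chains lay between 47.1% and 53.4% of scrambled and the summed enzymes between 57.4% and 60.4%. With a mean of at least 10 TPM, 10 chains were tested and called in place of 16 of 18, because fewer genes pass that filter. With no filter, 23 of 42 chains (3 higher) and 12 of 15 enzymes were called. Over all genes with that setting, 10286 of 19590 were called, 5119 higher and 5167 lower. Across 16 alternatives for the 10 members with a mean under 10 TPM and 17 for the others, 26 of 30 tested members kept their direction and side of the threshold, and the exceptions were Col2a1, Col15a1, Col17a1 and Loxl4. Col2a1, never called, changed sign with quantile normalization (0.12), without scrambled replicate 2 (0.0316) and without Urod shRNA replicate 1 (0.01), over a range of -0.0430 to 0.0316 with 1 library left out. Col15a1 passed with trimmed-mean (-0.24, adjusted p = 0.0397) and median-ratio scaling (-0.23, adjusted p = 0.0406), with no variance trend and with robust fitting. Col17a1 lost its call without both replicates numbered 1 (0.28, adjusted p = 0.0900) and Loxl4 with no filter or no variance trend (-0.17). The cause was not tested.

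Replicate numbers are shared between the groups in the titles, but deviations of same-numbered libraries correlated with r = 0.42, 0.21 and 0.10 (0.0951 for number 3), so the numbers were not taken as pairs. With the replicate block, 9882 genes were called, 16 chains (15 lower) and 12 enzymes, and no call on a chain or enzyme changed. Not every library correlated best with its own number: scrambled replicate 3 did so with Urod shRNA replicate 2 (r = 0.20). Each of the other libraries did correlate best with its own number. Libraries numbered 1 correlated negatively with differently numbered libraries of the other group, with r from -0.34 to -0.14. The SE of Col4a1 was 0.021 with the block and 0.11 without it. Whether same-numbered libraries were handled together was not tested. TPM keep no depth, so values under about 1 TPM, such as those of Col17a1, are of unknown counting precision.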
